A study of Mus musculus with 55 samples.

Results

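Trimethylation of lysine 4 on histone H3 (H3K4me3) marks the starts of genes that are being transcribed. Most promoters carry a short block of it. At some genes the mark spreads into a broad domain that runs over the promoter and into the gene body, and in many cell types such domains lie on genes that give the cell its identity and on constantly transcribed genes. H3K4me3 is written by the SET1 and MLL family of methyltransferases. KMT2C, also called MLL3, is a member of that family known mostly for monomethylation (H3K4me1) at enhancers, and mutations in its gene are found in small cell lung cancer, a neuroendocrine tumour that typically lacks RB1.

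The regions described here are the broad H3K4me3 domains of lung tumours of the PRM genotype. They were chosen by their measured width: the authors' H3K4me3 peaks of the 2 lung PRM libraries were merged wherever they overlapped by 1 bp or more, and merged regions of 5 kb or more with a peak in both libraries were kept. This gave 4134 domains of 22509 merged regions, of which 14790 had a peak in both libraries. The other 10656 regions with a peak in both, all under 5 kb, are called narrower shared regions, and 117 regions of 5 kb or more with a peak in 1 library only were left out. PRM widths are therefore descriptions and carry no test, and the same holds for the PRMK to PRM width ratio, whose lower term chose the domains.

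PRMK tumours grew from mouse lung organoids given guides that include ones against Rb1 and Kmt2c, and a Myc expression vector (MSCV-Myc-IRES-Luc2), and PRM tumours from organoids with the same guides and vector but no Kmt2c guide. The organoids were injected into the left lung lobe of recipient mice, and the labels give no strain or age. Both PRMK libraries of H3K4me3, H3K4me2 and KMT2C carried a further guide: replicate 1 lists sgMeis2 and replicate 2 a scrambled guide (sgScramble), so that difference cannot be told apart from the replicate. PRMK lung libraries of H3K4me1 and of open chromatin (ATAC) and all PRM lung libraries list no such guide. In every H3K4me3, H3K4me2 and KMT2C difference between PRMK and PRM given below, the further guide cannot be told apart from the genotype. Each mark had 2 libraries per genotype, so the smallest p an exact permutation test between the genotypes can give is 1 in 3, and values are given per library. RNA was counted in 3 PRMK and 3 PRM tumours and in 3 sgMeis2 and 3 sgScramble PRMK samples. The plasmid entries of the 3 PRMK RNA samples do not list the Kmt2c guide, and the PRM RNA samples alone are labelled with a stranded kit. In every RNA difference between PRMK and PRM given below, a difference of kit cannot be told apart from the genotype. The PRM RNA columns are numbered 4 to 6 and are called by those numbers below.

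Promoters of 6 domain genes are printed here because the results turn on them. H3K4me3 at Nfix and Sox2 covered less in PRMK than in PRM, at Meis2 and Foxa2 it differed between the PRM libraries, and at Nkx2-1 and Eef2 the widths in the 4 libraries were closer together. Each runs from 250 bases before to 50 bases after an annotated start, 300 bases in all, in RefSeq's mouse annotation on GRCm38.p6, and lies inside its gene's domain. Capitals mark each CG dinucleotide, where most methylation of mouse DNA occurs.
Meis2: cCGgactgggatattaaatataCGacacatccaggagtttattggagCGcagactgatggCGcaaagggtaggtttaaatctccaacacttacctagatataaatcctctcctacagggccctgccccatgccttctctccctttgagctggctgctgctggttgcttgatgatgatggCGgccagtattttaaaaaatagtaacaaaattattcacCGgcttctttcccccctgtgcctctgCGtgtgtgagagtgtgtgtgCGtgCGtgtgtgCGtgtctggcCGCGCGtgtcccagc
Nfix: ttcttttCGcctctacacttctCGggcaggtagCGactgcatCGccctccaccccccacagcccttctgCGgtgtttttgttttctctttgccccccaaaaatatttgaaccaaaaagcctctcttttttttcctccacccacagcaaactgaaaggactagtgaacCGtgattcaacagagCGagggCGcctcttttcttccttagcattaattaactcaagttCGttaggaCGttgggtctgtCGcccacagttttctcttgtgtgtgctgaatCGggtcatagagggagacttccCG
Sox2: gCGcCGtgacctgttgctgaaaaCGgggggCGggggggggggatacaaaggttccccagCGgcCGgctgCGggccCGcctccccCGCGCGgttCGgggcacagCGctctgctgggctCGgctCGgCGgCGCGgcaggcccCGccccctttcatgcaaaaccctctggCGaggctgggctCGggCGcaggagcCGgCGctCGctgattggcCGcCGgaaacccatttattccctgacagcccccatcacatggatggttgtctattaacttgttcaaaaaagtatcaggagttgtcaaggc
Nkx2-1: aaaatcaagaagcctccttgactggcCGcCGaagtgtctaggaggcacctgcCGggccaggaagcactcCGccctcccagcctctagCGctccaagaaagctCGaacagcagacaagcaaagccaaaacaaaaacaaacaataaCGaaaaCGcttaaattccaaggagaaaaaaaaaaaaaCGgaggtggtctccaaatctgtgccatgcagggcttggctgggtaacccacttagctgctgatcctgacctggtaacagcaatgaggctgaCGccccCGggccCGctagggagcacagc
Eef2: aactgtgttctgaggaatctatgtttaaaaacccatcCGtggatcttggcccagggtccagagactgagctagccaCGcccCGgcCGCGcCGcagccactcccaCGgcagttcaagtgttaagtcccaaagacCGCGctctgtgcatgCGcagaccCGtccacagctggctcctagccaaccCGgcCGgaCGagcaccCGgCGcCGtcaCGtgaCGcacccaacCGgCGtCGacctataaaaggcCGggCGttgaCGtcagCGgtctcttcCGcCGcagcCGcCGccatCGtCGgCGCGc
Foxa2: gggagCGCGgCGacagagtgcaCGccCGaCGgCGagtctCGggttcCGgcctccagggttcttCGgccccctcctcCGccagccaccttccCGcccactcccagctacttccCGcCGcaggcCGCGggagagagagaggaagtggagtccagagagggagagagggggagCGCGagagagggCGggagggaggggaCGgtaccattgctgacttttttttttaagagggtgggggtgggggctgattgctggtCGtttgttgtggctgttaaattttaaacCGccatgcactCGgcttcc
The Meis2 promoter lies at chr2:116064570-116064869 on the minus strand, that of Nfix at chr8:84780033-84780332 on the minus strand, that of Sox2 at chr3:34649745-34650044 on the plus strand, that of Nkx2-1 at chr12:56536859-56537158 on the minus strand, that of Eef2 at chr10:81176381-81176680 on the plus strand and that of Foxa2 at chr2:148045899-148046198 on the minus strand. They hold 13, 13, 27, 12, 34 and 23 CG in that order. Nfix has 4 promoters of the table inside its domain and Foxa2 has 3, of which 1 each is shown.

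Domain promoters were richer in CG than those of narrower regions. Promoters of domain genes held a median of 24 CG in 300 bases, against 20 for genes of narrower shared regions, 3 for genes that start in no shared region and 13 over all 21262 coding promoters in the table. At least 10 CG were present in 86.1% of domain promoters, against 80.9% in narrower regions and 56.7% of all promoters. The ratio of observed to expected CG, which allows for base composition, was 0.814 at domain genes and 0.736 at genes of narrower regions. The letters TATAAA, read on both strands, occurred in 6.44% of domain promoters, 6.61% of those in narrower regions and 12.6% of all.

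The domains had a median width of 6236 bp, with quartiles of 5511 and 7545 bp, and 20 of them reached 20 kb. By width, 1772 domains were under 6 kb, 1550 lay between 6 and 8 kb, 453 between 8 and 10 kb and 339 between 10 and 20 kb. Just inside the threshold lay regions of 5000 bp at Ankrd16 and Fbh1, 5000 bp at Mplkip and Sugct, and 5001 bp at Ube4b. Just outside lay regions of 4999 bp at Nptx2, 4998 bp at Smg9 and 4997 bp at Zfp26, so the limit cuts through a continuous range. In 2018 domains each PRM library alone covered 5 kb or more, and 378 domains were joined from more than 2 peaks. A coding gene started in 89.8% of the domains, against 68.5% of narrower shared regions. More than 1 coding gene started in 20.3% of the domains and in 5.8% of narrower regions, and the most crowded domain held 6. In all, 4606 coding genes started in a domain. Of these, 3717 were placed by the start on their own strand and 889, for which no strand was at hand, by either end of the gene.

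The widest domains held genes for untranslated RNA as well as developmental transcription factors. The widest of all, chr8:123564947-123624718 (59772 bp, GRCm38), spans 32 genes of the 5S ribosomal RNA cluster, and a second stretch of that cluster 26498 bp wide holds 15 more. Of 63 annotated rRNA genes, 48 lay in 3 domains and 0 in narrower shared regions. Transfer RNA genes showed a milder form of the same: 140 of 408 lay in 54 domains and 86 in 59 narrower regions, although the narrower regions were more numerous. Small nucleolar RNA genes, many of which sit in introns of ribosomal protein genes, counted 155 in 76 domains and 19 in 18 narrower regions. Such repeated genes draw reads that fit several copies, and the sources used here do not give how those reads were placed. The rule left out no repeat or artefact regions. The whole mitochondrial sequence, chrM:1-16299, counted as 1 domain, with a highest signal of 4689 and 6406 in PRMK and 7354 and 9484 in PRM. At the Sfi1 domain the highest signal was 2511 and 2573 in PRMK and 2153 and 2077 in PRM. The second widest domain, chr15:85651740-85691789 (40050 bp), held no annotated gene start. H3K4me3 there covered 37732 and 38528 bp in PRMK and 39386 and 38411 bp in PRM.

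Among coding genes, several of the widest domains lay at transcription factors. The domain of Gm36327 and neighbouring Gm genes, 37534 bp wide, and that of Sfi1, 27853 bp wide, also ranked there. Meis2, a TALE homeobox factor that partners with PBX proteins, had a domain of 38289 bp at chr2:116039122-116077410. Nfix, a nuclear factor I protein active in neural and muscle development, had 36896 bp at chr8:84763005-84799900, and its relative Nfib, which is amplified in mouse small cell lung cancer, had 27792 bp. Foxa2 and Nkx2-1, which pattern lung endoderm, had 23277 and 20269 bp, Tfap2a 21666 bp and Sox2, a factor of stem and neural progenitor cells, 21627 bp. The cell cycle inhibitor Cdkn1b had 20088 bp. These widths are merged over both PRM libraries and are not replicated values.

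Read by gene group, core cellular machinery and neuroendocrine regulators were counted often in the domains. The share of all coding genes in any shared region that lay in a domain was 37.7% (4606 of 12217), and this is the scale for each list. All 21 listed ribosomal protein and translation genes lay in a domain, as did 13 of 14 housekeeping genes such as Hsp90ab1. Neuroendocrine transcription factors had 11 of 13 genes in shared regions, among them Insm1, a zinc finger factor of the neuroendocrine programme, Foxa2 and Nkx2-1. Basic helix-loop-helix, Id and Hes genes had 17 of 20, immediate early and AP-1 genes 22 of 27, and Sox and forkhead genes 18 of 24. Subunits of the KMT2 and SETD1 complexes, which write the mark, had 13 of 17, Kmt2c and Kmt2d among them, while H3K4 demethylases had 2 of 5. Neuroendocrine granule and synapse genes, the products by which these cells are recognised, had 8 of 15.

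**Figure D1:**
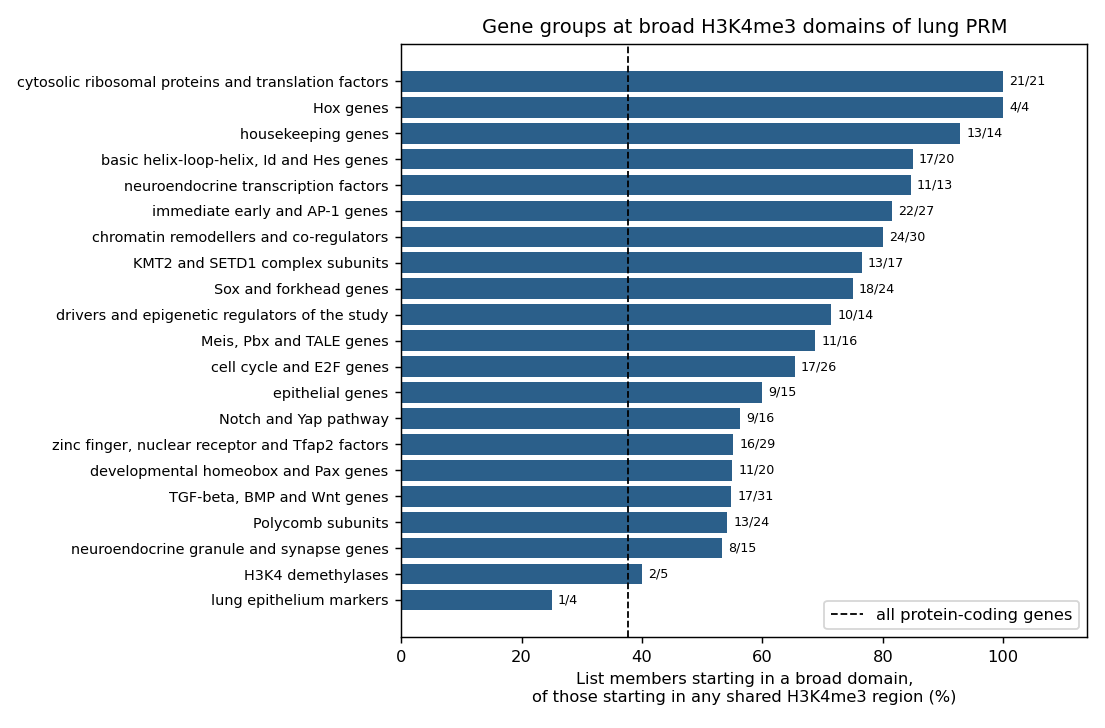
Share of list members starting in any shared lung PRM H3K4me3 region that start in a broad domain (percent, horizontal axis), for each list with at least 4 such members. Numbers give members in domains over members in shared regions, and the dashed line is the share over all coding genes, 37.7%, which all lists but the lung epithelium markers exceeded.

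Markers were read to check the tissue. Of 8 listed granule and synapse genes in domains, Chga, Chgb and Uchl1 are markers of neuroendocrine cells. Of 17 listed epithelial genes, 15 started in a shared region and 9 in a domain, Cdh1, Krt7 and Krt8 among them. Few immune, endothelial, fibroblast or hepatocyte markers started in any shared region. Of lung epithelium markers 1 of 4 in shared regions, Nkx2-1, lay in a domain, of immune markers 1 of 1, Cd68, and of endothelial markers 0 of 2, while 0 fibroblast and 0 hepatocyte markers started in a shared region. Of 39 Hox genes 4 started in a shared region, all in a domain, Hoxd3, Hoxd8, Hoxd9 and Hoxd10.

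The other marks were arranged over the domains in different shapes. Dimethylation (H3K4me2) overlapped 98.3 and 99.5% of the domains in the 2 PRM libraries, against 89.4 and 94.5% of narrower shared regions. KMT2C peaks of lung PRM overlapped 53.3 and 66.3% of the domains, against 25.1 and 37.7% of narrower regions. H3K4me1 overlapped 51.4 and 46.5%, against 24.9 and 21.6%. ATAC peaks overlapped 83.4 and 77.7%, against 57.6 and 46.3%. A wider region can hold more peaks by its length alone, and that was not separated here. Coverage by position was read along the scaled length. At the centre KMT2C peaks of lung PRM covered 27.0 and 32.5% of the domains, against 7.61 and 9.3% at the edges. ATAC was also centred, with 51.3 and 44.3% at the centre and 27.2 and 17.4% at the edges. H3K4me1 was flat, with 29.3 and 24.9% at the centre and 24.8 and 21.9% at the edges.

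**Figure D2:**
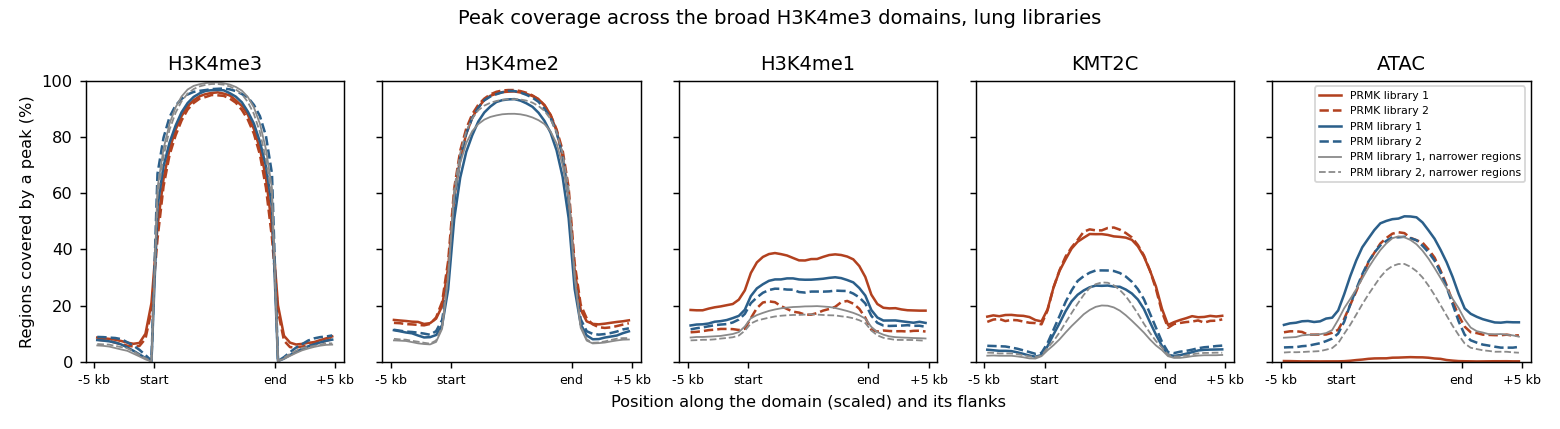
Percent of regions covered by a peak along the length of the 4134 broad domains, scaled from start to end with 5 kb on each side, for each lung library of 5 assays (PRMK red, PRM blue) and for PRM over narrower shared regions (grey). KMT2C and ATAC coverage was highest in the middle of the domains, and H3K4me1 coverage was flat across them. PRMK ATAC library 1 has few peaks and lies near 0.

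KMT2C occupancy was more frequent at wider domains. A KMT2C peak in both lung PRM libraries was present at 2146 domains (51.9%), against 23.9% of narrower regions. By width the share was 41.9% under 6 kb, 52.8% from 6 to 8 kb, 67.8% from 8 to 10 kb, 77.9% from 10 to 20 kb and 70% of the 20 widest. The rise was not particular to KMT2C. Peaks in both lung PRM libraries went from 30.0% under 6 kb to 90.0% of the 20 widest for H3K4me1. For ATAC they went from 64.5 to 85.0%. The part of length alone was not separated. At Nkx2-1 KMT2C peaks covered 83.6 and 72.2% of the domain in PRM, whereas at Meis2 they covered 0%. In the libraries labelled PRMK, KMT2C overlapped 94.6 and 93.9% of the domains and 77.8 and 76.1% of narrower regions. Those lists hold 187682 and 134561 peaks, against 9949 and 16681 in lung PRM, so the KMT2C peaks did not fall in the libraries labelled with the Kmt2c guide. What share of the antibody signal is KMT2C was not tested, and no direction is drawn from these lists.

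The 2 PRM libraries differed from each other at a minority of domains, and H3K4me2 differed the same way. At 261 domains the covered width, the bases of the domain under a library's H3K4me3 peaks, differed 2-fold or more between PRM libraries. Of these, 124 were wider in library 1, and there H3K4me2 was also wider in library 1 at 116 (93.5%), with a median coverage of 100.0% in library 1 and 49.3% in library 2. The 137 domains wider in library 2 had wider H3K4me2 in library 2 at 119 (86.9%), with medians of 49.5% in library 1 and 91.6% in library 2. Over all domains H3K4me2 was wider in library 1 at 36.9% and in library 2 at 56.4%. The rule did not use H3K4me2, and the labels do not say whether libraries of one number came from one tumour. KMT2C gave no clear reading, with equal covered width in both libraries at 79 of the 124, 57 of the 137 and 1342 of all 4134 domains. In the 124 it was wider in library 1 at 20 (16.1%) and in library 2 at 25 (20.2%), and in the 137 wider in library 1 at 21 (15.3%) and in library 2 at 59 (43.1%), against 26.5 and 41.0% over all domains.

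Genes at these domains included regulators of lineage. Meis2 had 38289 bp of H3K4me3 in PRM library 1 and 9660 bp in library 2, with 38289 and 9128 bp of H3K4me2. Foxa2 had 23277 and 9647 bp of H3K4me3, with 23277 and 6625 bp of H3K4me2. The epithelial Ets factor Ehf had 12574 and 3557 bp, with 12574 and 3085 bp of H3K4me2. All 3 were wide in library 1. Nefl, a neurofilament gene, was wide in library 2, with 7118 bp in library 1 and 20300 bp in library 2 of H3K4me3 and 8398 and 20300 bp of H3K4me2. Prdm6, with 2251 and 16581 bp, was also wider in library 2. The domain of Hoxd8 to Hoxd10, with 10939 and 17439 bp, differed by less than 2-fold, and H3K4me2 covered 0% of the Hoxd domain in library 1 and 95.3% in library 2. PRMK values at these genes are therefore set beside each PRM library and not beside their mean.

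In PRMK most domains kept nearly their PRM width. Covered width had a median log2 ratio of PRMK over PRM of -0.04 at the domains and -0.05 at narrower shared regions. Of the domains, 98.2% had a peak in both PRMK libraries and 28 had one in neither. Covered width lay below both PRM libraries in both PRMK libraries at 905 domains (21.9%), against 24.0% of all shared regions, and above both at 240 (5.81%), against 6.37%. Both shares are close to those of all shared regions, so they are no result about the domains. When the same rule was applied to the PRMK libraries instead, 4491 domains were found and the median was 0.16. Of the PRM domains 77.2% overlapped a PRMK domain, and of the PRMK domains 70.6% overlapped a PRM domain. The highest signal in the domain, for which no scaling between libraries is stated, had a median log2 ratio of 0.02 at 4059 domains and 0.09 at 8989 narrower regions, both with peaks in all 4 libraries. Width and signal could part: at Nkx2-1, where widths were 15689 and 17056 bp in PRMK and 20269 and 17391 bp in PRM, the highest signal was 99 and 156 in PRMK, against 429 and 413 in PRM. At Nfix it was 62 and 98 in PRMK, against 274 and 281 in PRM, and at Eef2 366 and 446, against 396 and 603, which overlap.

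Eef2 and Nfib had similar widths in all 4 libraries. At Eef2, the elongation factor that moves the ribosome along, H3K4me3 covered 12122 and 11216 bp in PRMK and 12809 and 12455 bp in PRM. At Nfib it covered 24518 and 23678 bp in PRMK and 26837 and 27547 bp in PRM. PRMK values lay below PRM at both genes by a small part of the width.

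A small set of 47 domains (1.14%) was much narrower in PRMK, with the wider PRMK library covering no more than 50% of the narrower PRM one. Among all shared regions the share was 5.3%, and the limit was set after the values were seen. The count was 112 without PRM library 1, 97 without PRM library 2, 102 without PRMK library 1 and 234 with stricter peaks, those above their own list's median signal. By the mirrored rule, 66 of the 4491 PRMK domains were as much narrower in PRM. Of the 47, 28 had no PRMK peak, and 26 held a coding start. Nfix was the widest: H3K4me3 covered 4557 and 5211 bp in PRMK, against 36435 and 28471 bp in PRM. The neuronal repressor gene Zbtb18 had 7859 and 7467 bp in PRMK and 18869 and 18665 bp in PRM. A 23036 bp domain inside the body of Zbtb20, a zinc finger factor gene of brain and liver, had 4895 and 0 bp in PRMK and 21807 and 23036 bp in PRM. At each of these the PRMK libraries lay far below both PRM libraries, which were closer to each other.

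The following genes of the set were picked after their values were seen, and 21 of the 47 domains held no coding start. The domain of Hoxd8, Hoxd9 and Hoxd10 had 0 and 0 bp in PRMK, against 10939 and 17439 bp in PRM, and that of Hoxd3 0 and 0 bp, against 8995 and 11368 bp. Their highest signal was low in PRM library 1, at 31 and 49, against 425 and 384 in library 2. Six3 had 3112 and 0 bp in PRMK and 7093 and 13514 bp in PRM. Irx1 had 2620 and 0 bp in PRMK and 6836 and 6382 bp in PRM. Runx3, a Runt factor of neurons and lymphocytes, had 0 and 0 bp in PRMK and 2077 and 5541 bp in PRM, and Onecut1, a factor of liver and pancreas, 0 and 0 bp against 3106 and 8172 bp. The cyclin gene Ccnd1 had 2634 and 2778 bp in PRMK and 5621 and 7964 bp in PRM. By the rule for the largest loss, 5 domains without a PRMK peak stood first: Ehf (12574 and 3557 bp in PRM), Tmem171 (9971 and 1725 bp), Ppp1r3a (6105 and 8317 bp), Phlda3 (2687 and 7789 bp) and Shisa6 (4649 and 5548 bp). Ehf, Tmem171 and Phlda3 differed between the PRM libraries by more than 2-fold. Sox2 lay just outside the limit, with 7497 and 7249 bp in PRMK and 21417 and 14984 bp in PRM.

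**Figure D3:**
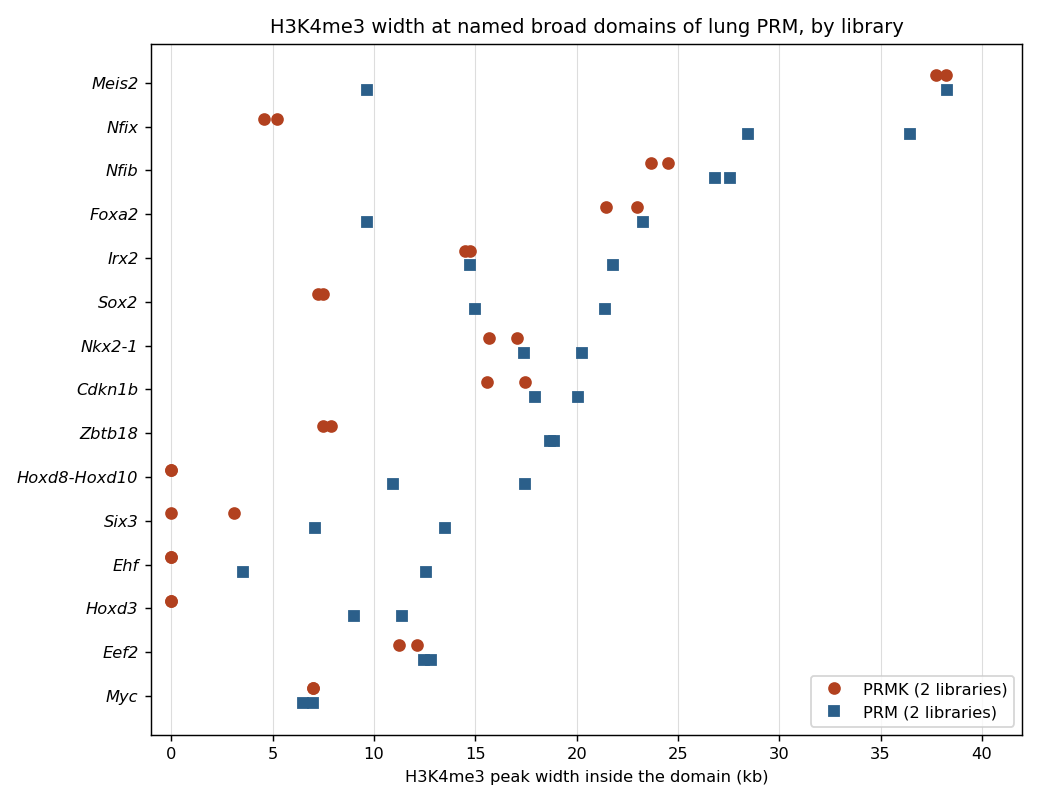
H3K4me3 covered width in kb inside 15 named domains (PRMK circles, PRM squares, 2 libraries each, a point per library). Nfix, Zbtb18, Sox2, Hoxd and Six3 were wider in both PRM libraries than in both PRMK libraries, Meis2, Foxa2 and Ehf differed between the PRM libraries, and at Eef2 and Myc the 4 libraries lay close together.

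H3K4me2 was also shorter at the 47 domains in PRMK. The rule did not use it, but the 47 were picked for narrow H3K4me3 in PRMK. Between the PRM libraries H3K4me2 had differed the same way as H3K4me3, so it is no independent check. It covered a median of 50.4 and 37.2% of them in PRMK, against 96.4 and 99.3% in PRM. At the other 4087 domains it covered 92.0 and 94.5% in PRMK and 88.2 and 92.2% in PRM. Both PRMK libraries lay below both PRM libraries at 24 of the 47, and at 12.7% of all domains. At Nfix H3K4me2 covered 9.7 and 68.4% in PRMK, against 99.4 and 98.7% in PRM, and at Sox2 38.7 and 36.7%, against 92.9 and 66.3%. KMT2C in both lung PRM libraries was present at 15 of the 47 (31.9%), against 51.9% of all domains. Nfix was among the 15, with 68.0 and 57.3% covered in PRM. H3K4me1 went another way at Ehf, where it covered 96.9 and 74.0% in PRMK and 20.7 and 25.6% in PRM. Promoters of genes in the 47 domains held a median of 11 CG and 59.5% had at least 10, against 24 CG and 86.1% over all domain promoters.

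Covered width cannot exceed the PRM domain, so it can show little widening. By that measure the largest gains were at Meis2 (37753 and 38216 bp in PRMK, against 38289 and 9660 bp in PRM), the keratin gene Krt8 (5473 and 5480 bp, against 5480 and 1573 bp), Arhgef16 (5089 and 5035 bp, against 5198 and 1652 bp), the epithelial factor gene Ovol1 (5781 and 5644 bp, against 5781 and 2050 bp) and Celf3 (7803 and 7114 bp, against 7803 and 2447 bp). In each, PRM library 1 filled or nearly filled the domain and library 2 was narrow. Whole peaks, which may run past the domain, were wider in both PRMK libraries than in both PRM libraries at Krt8 (6482 and 14690 bp, against 5480 and 1573 bp) and Ovol1 (10889 and 5963 bp, against 5781 and 2050 bp), while at Arhgef16 they were 5276 and 5142 bp, against 5198 and 1652 bp. By whole peak width, 14 domains (0.339%) were 2-fold or more wider in both PRMK libraries, against 0.811% of all shared regions. At Sox1 1 PRMK peak of 21797 or 21982 bp spanned 2 neighbouring PRM domains of 9624 and 10398 bp.

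RNA was not used by the rule, so the genes of the domains could be tested. The tables held 4394 of the 4606 genes, and 4343 (94.3%) passed the filter on low counts, against 91.9% of genes of narrower regions and 20.7% of genes without a shared region. Total counts ran from 18819262 to 24123055 in PRMK and from 12013253 to 19550439 in PRM. PRM library 6, the shallowest, stood apart: 20 of 21 listed neuroendocrine factors in the table summed to 4550 to 5910 CPM (counts scaled to library size with TMM factors) in PRMK and to 6470, 4760 and 444 CPM in PRM libraries 4, 5 and 6. The 15 of 17 epithelial genes in the table summed to 1220 to 4890 CPM in PRMK and to 721, 105 and 4060 CPM in PRM. For 7 of 9 immune markers the sums were 431 to 651 CPM in PRMK and 3.98 to 499 CPM in PRM, and for 8 of 9 fibroblast markers 71.0 to 300.0 CPM and 3.2 to 344 CPM. No marker in the tables was at 0 in all 6 libraries. In such bulk samples fewer cells of a type and less RNA per cell cannot be told apart, and the part of these markers in the results below was not tested. Nothing in the labels gives separate animals for the replicates, and p-values then measure the spread between these samples, which may be technical.

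No domain gene passed edgeR's quasi-likelihood test with Benjamini-Hochberg adjustment at 0.05 between PRMK and PRM, as with 0.0% of the 13914 genes tested. The test had little power here. In counts simulated with the means and spread of these libraries, edgeR recovered 0 of 70 genes changed 2-fold. It recovered 6 of 70 changed 4-fold and 41 of 60 changed 16-fold, where DESeq2 recovered 5, 35 and 51. So 0 calls do not show that RNA was unchanged. At an unadjusted p under 0.05, 870 domain genes (20%) were counted, 302 higher and 568 lower in PRMK, against 17.1% of all genes. DESeq2 called 424 of the same 4343 (9.76%), 156 higher and 268 lower, against 8.7% of all genes. Without PRM library 4, edgeR called 310 domain genes, 78 higher and 232 lower in PRMK, and without any other single library it called 0. All 3 PRMK libraries lay above all 3 PRM libraries at 626 domain genes and below at 780, against 15.1 and 14.6% of all genes. The median log2 fold change was -0.07 at domain genes, -0.04 at genes of narrower regions, 0.36 at genes in no shared region and -0.02 over all genes. These classes were chosen by a mark read in PRM alone, and what that choice adds to the medians was not tested. It was -0.10 for domains of 5 to 8 kb and 0.03 for domains of 8 kb or more. It was -0.08 at genes whose domain had KMT2C peaks in both lung PRM libraries and -0.05 where neither had them.

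**Figure D4:**
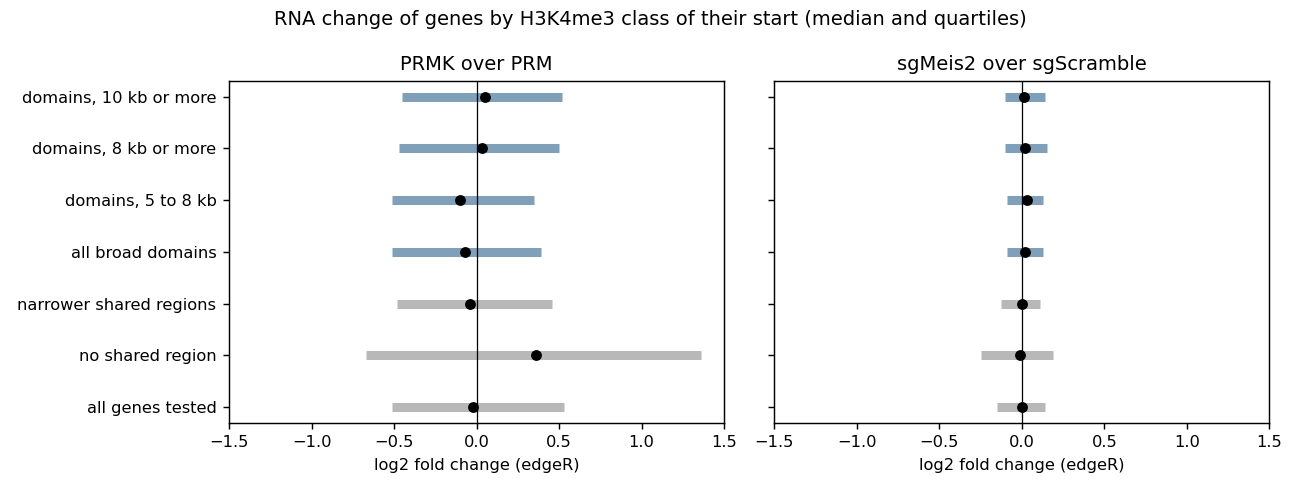
Median (point) and quartiles (bar) of the log2 fold change per gene from edgeR, for PRMK over PRM (left) and sgMeis2 over sgScramble (right), by the H3K4me3 class of the gene's start. Medians of the domain classes lay between -0.10 and 0.05 in PRMK over PRM and between 0.01 and 0.03 in sgMeis2 over sgScramble.

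The 6 domain genes with the lowest p were lower in PRMK, each with an adjusted p of 0.158 by edgeR's quasi-likelihood test with Benjamini-Hochberg adjustment. Hapln4, a link protein of the matrix around neurons, had 1.57, 0.679 and 1.74 CPM in PRMK, against 49.2, 53.5 and 21.6 CPM in PRM (log2 fold change -4.95, SE 0.59). Slc7a5, a transporter of large amino acids, had 142, 180 and 137 CPM, against 508, 489 and 641 CPM in PRM (-1.83, SE 0.22). Utp4, which works in ribosome assembly, had 47.5, 54.0 and 42.8 CPM, against 147, 243 and 208 CPM in PRM (-2.05, SE 0.25). The groups did not overlap at any of these. Thbs3, a thrombospondin, had 3.38, 2.45 and 2.38 CPM, against 19.1, 21.5 and 19.3 CPM in PRM (-2.87, SE 0.35). Myc had 273, 312 and 205 CPM, against 1140, 2310 and 2060 CPM in PRM (-2.80, SE 0.36), and reads of the expression vector and of the gene cannot be told apart. Galk1, a galactokinase, had 20.4, 22.8 and 15.0 CPM, against 80.7, 145 and 178 CPM in PRM (-2.79, SE 0.36). Again no PRMK library reached a PRM one. H3K4me3 at Myc covered 6979 and 6994 bp in PRMK and 6994 and 6479 bp in PRM, which overlap. At the other 5 genes both PRMK libraries lay below both PRM libraries, from 11846 and 11220 bp, against 12894 and 13486 bp, at Slc7a5 to 2195 and 2053 bp, against 2893 and 5913 bp, at Hapln4.

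Genes of the 47 domains that were narrower in PRMK had RNA in both directions. Of 29 such genes 20 passed the filter, with a median log2 fold change of 0.26, which was -0.14 without PRMK replicate 2. An unadjusted p under 0.05 was seen at 3 of them (15.0%), against 17.1% of all genes. Nfix RNA was 568, 872 and 187 CPM in PRMK and 538, 554 and 325 CPM in PRM, which overlap (log2 fold change 0.20, SE 0.56). Zbtb18 had 164, 151 and 154 CPM in PRMK and 125, 150 and 74.2 CPM in PRM (0.43, SE 0.28), higher in PRMK where its domain was shorter. Sox2, just outside the limit, had 76.3, 130 and 72.3 CPM in PRMK and 150, 86.0 and 46.7 CPM in PRM (-0.02, SE 0.47). Ppp1r3a, a subunit that brings protein phosphatase 1 to glycogen and whose domain had no PRMK peak, had 32.0, 6.11 and 16.3 CPM in PRMK and 0.0 CPM in each PRM library. Runx3, also without a PRMK peak, went with its domain in 2 PRM libraries of 3, with 0.684, 1.77 and 1.23 CPM in PRMK and 57.9, 67.0 and 0.89 CPM in PRM. Over 4397 pairs of gene and domain, which share libraries and are not independent, the log2 width ratio and the log2 RNA ratio had a Pearson r of 0.0755 and a Spearman rho of 0.0695.

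RNA was also read at 3 of the genes with the largest gains of covered width, a gain that rests on PRM library 2. Meis2 had 139, 215 and 272 CPM in PRMK and 0.889, 1.46 and 17.3 CPM in PRM (5.02, SE 1.25, adjusted p = 0.195 by edgeR). Arhgef16 had 92.7, 27.3 and 183 CPM in PRMK and 8.73, 0.841 and 24.1 CPM in PRM (3.17, SE 1.22). Krt8 had 832, 229 and 927 CPM in PRMK and 106, 16.6 and 1120 CPM in PRM (0.68, SE 1.36), and PRM library 6 overlapped PRMK. At all 3 the PRM H3K4me3 libraries had differed as well, and nothing in the labels pairs them with the RNA samples.

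Gene groups of the domains differed in direction. All 21 ribosomal protein and translation genes were lower in PRMK, with a median log2 fold change of -1.0, 14 at an unadjusted p under 0.05 (against 17.1% of all genes) and 15 lower without overlap between the groups (against 14.6%), and 0 passed edgeR's adjusted threshold. Rpl4 had 684, 828 and 739 CPM in PRMK and 1170, 1560 and 2670 CPM in PRM (-1.26, SE 0.35), and Rps3 655, 821 and 721 CPM, against 1190, 1240 and 2220 CPM (-1.08, SE 0.32). DESeq2 called 6 of the list, Ncl, Npm1, Rpl4, Rpl8, Rps19 and Rps3. All 21 were also lower with DESeq2's scaling, and the median was -0.64 without PRM library 6. At the Rpl4 domain H3K4me3 covered 8937 and 10923 bp in PRMK and 7900 and 11165 bp in PRM, which overlap, while at Eef2 both PRMK libraries lay below both PRM libraries.

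TALE homeobox genes had 8 of 10 tested members higher, with a median of 0.50, and 7 of 10 with a median of 0.17 without PRM library 6. With all libraries DESeq2 called Meis1 and Meis2 higher and Tgif2 lower. Immediate early and AP-1 genes had 12 of 15 lower (Klf9 by DESeq2), with a median of -0.71 that became 0.12 without PRM library 6. Junb, an AP-1 subunit, had 26.4, 20.4 and 20.6 CPM in PRMK and 45.1, 29.8 and 251 CPM in PRM. Epithelial genes had 9 of 9 higher, with a median of 1.09, which became 4.73 without PRM library 6, and 0 of them had an unadjusted p under 0.05 with all libraries. Neuroendocrine granule and synapse genes had 8 of 8 higher with a median of 0.46, and 4 of 8 with a median of -0.10 without that library. The neuroendocrine factors were split 6 to 5. For Nkx2-1 the counts were 301, 424 and 278 CPM in PRMK and 666, 655 and 0.0 CPM in PRM, and the log2 fold change of -0.40 (SE 1.77) became -0.98 (SE 0.23) when PRM library 6 was left out. Foxa2 had 392, 284 and 434 CPM in PRMK and 301, 51.7 and 3.83 CPM in PRM (1.64, SE 1.26, and 1.07, SE 0.74 without library 6). The remaining lists with 2 or more tested genes had medians between -0.72 and 0.85, and of their members DESeq2 called Mycl, Pax9, Phf19, Hdac1, Hdac4 and Ubb higher and Myc, Foxn2, Tead1 and Actg1 lower. Pax9, a paired box factor of endoderm pouches, had 48.2, 137 and 29.2 CPM in PRMK and 11.1, 2.86 and 5.79 CPM in PRM, with domains of 15783 and 17539 bp, against 14248 and 18931 bp. Mycl, the Myc relative of neuroendocrine lung tumours, had 205, 261 and 268 CPM in PRMK and 92.2, 24.2 and 18.5 CPM in PRM.

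**Figure D5:**
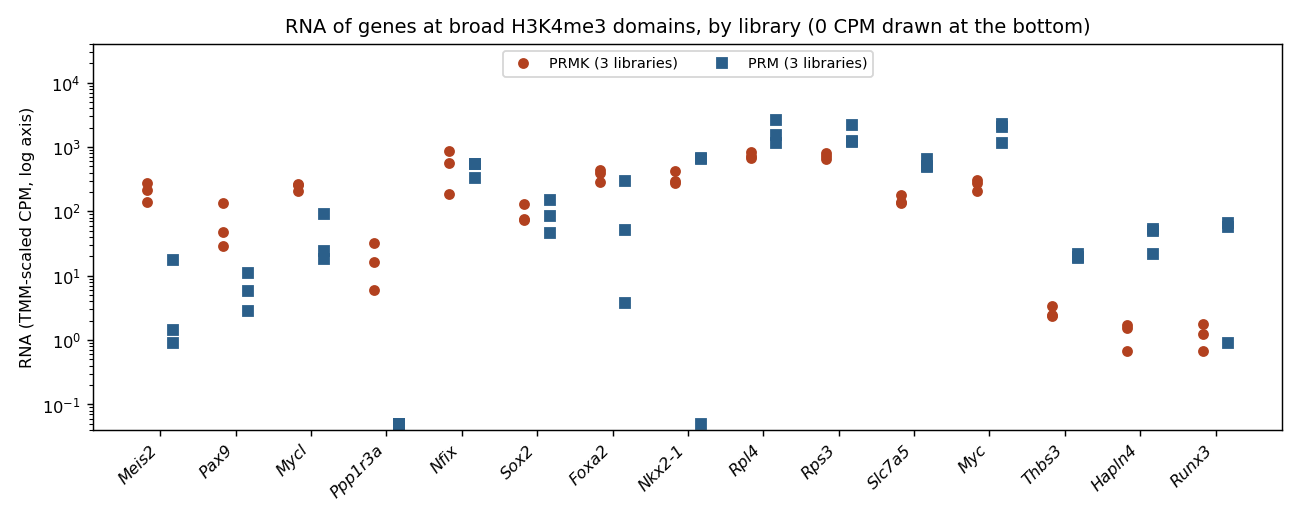
RNA in TMM-scaled CPM (log axis, 0 drawn at the bottom) of 15 domain genes in each of 3 PRMK libraries (circles) and 3 PRM libraries (squares). Myc, Slc7a5, Thbs3 and Hapln4 lay lower in every PRMK library than in every PRM library, Meis2, Pax9 and Mycl lay higher, and Nfix, Sox2, Foxa2 and Nkx2-1 overlapped.

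The guide against Meis2, the gene of the widest coding domain, gave few differences at domain genes in PRMK. Of the domain genes, 4385 were tested and 0 passed edgeR's quasi-likelihood test with Benjamini-Hochberg adjustment, as with 0.0% of 16260 genes. At an unadjusted p under 0.05 there were 170 (3.88%), against 4.67% of all genes, and the lowest adjusted p by edgeR was 0.677. DESeq2 called 2, Nr2f1 and Gm6034 (0.0456%, against 0.135% of all genes). Without sgMeis2 replicate 3 edgeR called 9, and without any other single library 0. The groups did not overlap at 433 domain genes that were higher and 299 that were lower with sgMeis2, against 8.12 and 7.92% of all genes. Nr2f1, an orphan nuclear receptor of neural development, had 131, 120 and 124 CPM with sgMeis2 and 86.5, 91.6 and 93.3 CPM with sgScramble (log2 fold change 0.47, SE 0.07, DESeq2 adjusted p = 0.00388). Gm6034 had 3.53, 3.20 and 3.91 CPM with sgMeis2 and 1.52, 1.61 and 1.07 CPM with sgScramble (1.34, SE 0.22). The tetraspanin Cd9 had 58.0, 59.2 and 60.9 CPM, against 74.7, 79.0 and 77.6 CPM (-0.38, SE 0.07), and the annexin Anxa2 7.75, 6.45 and 5.31 CPM, against 11, 10.2 and 11.2 CPM (-0.73, SE 0.16). Meis2 itself had 219, 224 and 137 CPM with sgMeis2 and 259, 227 and 233 CPM with sgScramble (-0.31, SE 0.19). A guide cuts DNA and need not lower the RNA, so this does not check the labels. The Meis2 domain covered 37753 bp in the PRMK library that lists sgMeis2 and 38216 bp in the one that lists sgScramble.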

How the data were processed

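The domains and gene lists were chosen with earlier results of these data known. CUT&Tag peaks were called with SEACR after Bowtie2 alignment to mm10, per the submitters' processing notes, and each deposited list gives a peak's signal, used as deposited and not rescaled. ATAC peaks, deposited by the authors as gapped peaks with a score, were used for position. RNA values are raw gene counts by the authors, aligned with STAR 2.6.0a to GRCm38 per the submitters' processing notes. Peaks were merged at 1 bp overlap, and other marks were read as bases covered. Coding starts came from RefSeq (GRCm38.p6). Genes were joined by identifier, else by symbol.

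Counts were tested with edgeR 4.0.16 (R 4.3.3) quasi-likelihood tests after its filter on low counts, with TMM scaling and Benjamini-Hochberg adjustment at 0.05 over all genes tested, each comparison fitted on its own 6 libraries. Alternatives were DESeq2 1.42.0, edgeR's likelihood ratio test, no filter, other width limits, whole peak widths, a mirrored choice in PRMK and leaving out each library. The code was tested on simulated data. Named genes were those of the 10 widest domains, the 5 largest losses and gains of covered width among domains with a tested gene, up to 3 per list, and the 6 and 4 lowest p-values in the PRMK and sgMeis2 comparisons. Regions just inside and just outside 5 kb were named too, 3 each. Zbtb18, Zbtb20, Hoxd3, Six3, Irx1, Runx3, Onecut1, Ccnd1, Nefl, Prdm6, Sox1, the Hoxb genes and other list members called by DESeq2 or given as examples were named after their values were seen, and the 6 printed promoters were picked then too. Liver, single-cell and methylation data were not used here, and some genes are not reported here.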

Additional observations from a re-analysis of the deposited data

How the results depend on the processing

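Width limits of 4 and 8 kb gave 7047 and 812 domains, and 2018 were 5 kb or more in each library. The median log2 width ratio, -0.045 as reported, was 0.164 when domains were chosen in PRMK, 0.0 by whole peak width, and -0.085 to -0.02 when 1 library was left out. In analyses added after the data were seen it was 0.002 or 0.031 when domains were chosen on PRM library 1 or 2 alone and read in the other, and 0.072 when all 4 libraries were merged, so its sign rests on the choice. The signal ratio of domains relative to narrower regions, -0.071, was 0.021 in the mirrored choice. KMT2C in both PRM libraries was at 72.04% of domains of 8 kb or more. The count of domains 2-fold narrower in PRMK, 47, was 88 at 4 kb, 20 at 8 kb, 234 with stricter peaks, 25 with 5 kb in each library, and 68 to 112 without 1 library (112 without PRM 1, 97 without PRM 2, 102 without PRMK 1), all added later. For PRMK against PRM, edgeR's 0 calls at domain genes became 425 with DESeq2, 146 with the likelihood ratio test and 0 to 310 without 1 library, 310 being without PRM library 4. The median log2 fold change, -0.072, was 0.027 at domains of 8 kb or more, and at genes of the 47 domains 0.262 became -0.14 without PRMK replicate 2. For sgMeis2, edgeR's 0 calls became 2 with DESeq2 and 0 to 9 without 1 library, 9 being without sgMeis2 replicate 3. With a replicate block 0 domain genes were called. Same-numbered samples had correlations of 0.00922, -0.00469 and 0.0267 in their deviations from the group means. These values do not show a pairing but cannot exclude one. No paired analysis was possible for PRMK against PRM because the titles share fewer than 2 replicate numbers. The cause of these shifts was not tested. Depth limits the genes under edgeR's filter, the 4 Hoxd genes had 0 counts in all sgMeis2 and sgScramble libraries and were not analysed in PRMK against PRM, and peak lists show nothing under the caller's threshold.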

Other observations

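The widest domain found when the same rule was applied to the PRMK libraries has no H3K4me3 peak in either PRM library. It spans Hoxb2 to Hoxb9 at chr11:96269243-96356915 (87673 bp), where H3K4me3 covered 87372 and 87396 bp in PRMK and 0 and 0 bp in PRM. The PRM Hoxd domains ran the other way in width, with 0 bp in both PRMK libraries. Their signal was strong in PRM library 2 only: the highest was 425 at Hoxd8 to Hoxd10 and 384 at Hoxd3, against 31 and 49 in library 1. Hoxb RNA varied among the PRMK samples. Hoxb5 had 9.85, 0.261 and 103 CPM in PRMK and 0.0 CPM in each PRM library, and Hoxb4 had 6.55, 0.835 and 47.7 CPM in PRMK and 0.261, 0.0561 and 0.445 CPM in PRM. PRMK replicate 2 was low in both genes. Hoxb4 was tested, with a log2 fold change of 6.19 (SE 1.7) and an adjusted p of 0.208 by edgeR's quasi-likelihood test with Benjamini-Hochberg adjustment. Hoxb5 did not pass edgeR's filter, and DESeq2 gave it an adjusted p of 1.09e-05. In all, 106 of 4491 PRMK domains overlapped no shared PRM region.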
